A study of Mus musculus with 5 samples.

Results

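The genes described here are 10 imprinted genes of embryonic growth, H19, Igf2, Igf2r, Dlk1, Meg3, Peg3, Mest, Plagl1, Grb10 and Ndn. They were taken by symbol from a table of gene expression in the atrioventricular canal (AVC) of mouse hearts at embryonic day 12.5. All 10 were present, with 1 transcript each, among 14697 transcripts. The AVC is the part of the heart where the endocardial cushions, which become the valves, form between atria and ventricles. RNA-seq values were compared between Sox9 cKO AVCs (Sox9fl/fl:Tie2-Cre/+) and WT AVCs (Sox9fl/fl:+/+), both of strain C57BL/6. The WT group thus carried floxed Sox9 too and lacked Cre. Tie2-Cre acts in endothelial cells and their descendants, much of the cushion mesenchyme among them, and in blood lineages, so myocardium keeps an intact Sox9 gene. Per the labels, AVCs were pooled within a genotype and 2 libraries were made from each genotype. The table gives 1 value per genotype, merged over these libraries.

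An imprinted gene is transcribed mainly from the copy inherited from 1 parent, and which copy is silenced is set by DNA methylation laid down in the germ line. In mouse, paternally expressed genes of this group tend to favour growth of the embryo and maternally expressed ones tend to restrain it. IGF2, the growth factor made from Igf2, signals through the IGF1 receptor, while IGF2R carries IGF2 to the lysosome for degradation. The parental copy named for each gene below is such background. The deposited values do not separate the parental copies, so they bear on the summed transcript level and not on imprinting itself.

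Of the 10 genes, 5 stood higher in Sox9 cKO AVCs than in WT AVCs by at least 0.322 on the log2 scale once the shift of all transcripts was taken out, against 10.8% of all transcripts, and none stood as far in the lower direction, against 9.62%. These 5 were Mest, Dlk1, Igf2, Igf2r and Plagl1. Mest differed most, and in nFPKM it alone reached 0.322 where the shift was not taken out. The authors also deposited a log2 fold change, with a median of -0.0054 over all transcripts. With nothing taken out, it ran from 0.351 to 0.789 for these 5 genes and from -0.045 to 0.225 for the other 5. H19, Grb10, Ndn, Peg3 and Meg3 lay closer to the median of all transcripts. None of the 10 reached a 2-fold difference. Because the libraries were merged before deposit, replicate error is unknown, no test could be run, and every difference is given by size alone.

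Levels are in nFPKM, which are fragments per kilobase of transcript scaled to library size (FPKM) that the authors normalized once more, so levels can be set side by side between genes. The read depth behind them is unknown. Differences are log2 ratios of Sox9 cKO over WT after adding 1 nFPKM to both values, among 13793 transcripts that reached 1 nFPKM in Sox9 cKO or in WT. The median of these ratios was -0.11, and differences are given relative to it (relative log2 ratio), so that 0 is the middle transcript. The size rule used here is a relative log2 ratio of at least 0.322 in either direction. It was met by 1486 transcripts in the higher direction, which is 10.8%, and by 1327 in the lower, which is 9.62%. Without the centring, 942 transcripts met it higher and 2379 lower, so the share of higher ones among them was 28.4% in place of 52.8%. The 2-fold rule was met by 0.834% of transcripts in the higher and 0.674% in the lower direction.

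Sox9 itself, the targeted gene, stood at 14.7 nFPKM in Sox9 cKO AVCs and 36.7 nFPKM in WT AVCs. Sex-linked genes differed too, with Xist at 71.6 nFPKM in Sox9 cKO AVCs and 175 nFPKM in WT AVCs, and the Y-linked Ddx3y at 35.2 nFPKM in Sox9 cKO AVCs and 4.26 nFPKM in WT AVCs. The 10 genes are autosomal, and the part of the sex of the embryos in their values was not tested. Markers of cell types, in lists chosen with earlier results of these data known, differed as well. Sox9, the targeted gene, is itself among the 10 valve mesenchyme markers. Their summed level was 2508 nFPKM in Sox9 cKO AVCs and 3803 nFPKM in WT AVCs, with all 10 below the median of all transcripts. That of 10 endothelial markers was 1152 nFPKM in Sox9 cKO AVCs and 939 nFPKM in WT AVCs, with all 10 above that median. Epicardial markers summed to 398 nFPKM in Sox9 cKO AVCs and 312 nFPKM in WT AVCs, with 8 of 10 above it. Cardiomyocyte markers summed to 43995 nFPKM in Sox9 cKO AVCs and 42625 nFPKM in WT AVCs, with 5 of 10 above it. Erythroid markers summed to 84112 nFPKM in Sox9 cKO AVCs and 36668 nFPKM in WT AVCs, with 10 of 10 tested above it. None of the tested markers in these 5 lists was at 0 in either genotype, and the listed erythroid markers Hba-a1 and Ahsp had no values. Fewer cells of a type and less RNA per cell cannot be told apart in pooled tissue, and the part of cell makeup in the values of the 10 genes was not tested. Macrophage markers summed to 162 nFPKM in Sox9 cKO AVCs and 192 nFPKM in WT AVCs, with 3 of 10 above the median. Neural crest, glial and neuronal markers summed to 176 nFPKM in Sox9 cKO AVCs and 157 nFPKM in WT AVCs, with 2 of 7 above it. Most of that sum was Ednrb, at 147 nFPKM in Sox9 cKO AVCs and 112 nFPKM in WT AVCs. Of the 7, 2 met the size rule higher and 4 lower, beside 10.8% and 9.62% of all transcripts. Hepatocyte markers, a check for carried-over liver, reached at most 5.52 nFPKM in Sox9 cKO AVCs and 4.70 nFPKM in WT AVCs. The listed hepatocyte markers Alb, Fgb and Serpina1a had no values, so the check does not cover them.

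Taken by level, the 10 genes spanned a wide range. H19 was the 11th most abundant of all transcripts in Sox9 cKO AVCs and the 10th in WT AVCs. Mest ranked 13th in Sox9 cKO AVCs and 32nd in WT AVCs, and Igf2 ranked 31st in Sox9 cKO AVCs and 39th in WT AVCs. Dlk1 was the lowest of the group, at rank 7577 in Sox9 cKO AVCs and 8667 in WT AVCs. The 10 genes together made up 1.60% of the summed nFPKM in Sox9 cKO AVCs and 1.33% in WT AVCs. The 6 paternally expressed genes made up 0.742% in Sox9 cKO AVCs and 0.534% in WT AVCs. The 4 maternally expressed genes made up 0.860% in Sox9 cKO AVCs and 0.794% in WT AVCs.

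**Figure D1:**
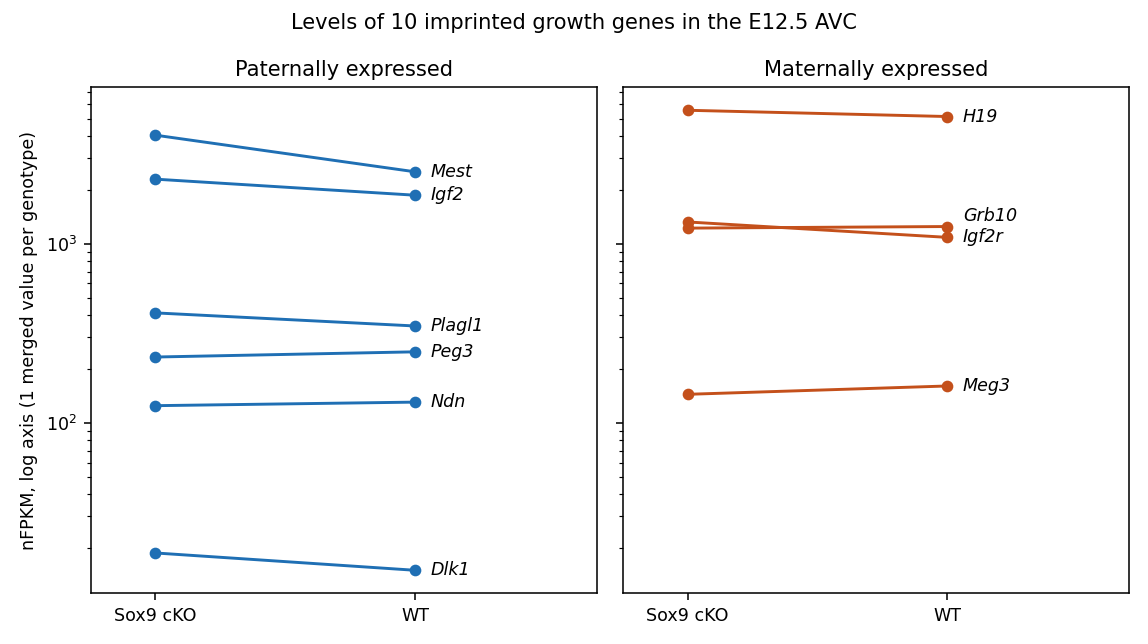
Level of each gene in nFPKM on a log axis in Sox9 cKO and WT AVCs, 1 merged value per genotype, with paternally expressed genes on the left and maternally expressed genes on the right. The steepest line is that of Mest, at 4041 nFPKM in Sox9 cKO and 2523 nFPKM in WT, and H19 is the highest in both genotypes.

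Mest (NM_001252292), also called Peg1, is expressed from the paternal copy, encodes an enzyme-like protein of the alpha/beta hydrolase fold and is known for its high level in embryonic mesoderm. It stood at 4041 nFPKM in Sox9 cKO AVCs and 2523 nFPKM in WT AVCs, 1.60 times as much. Its relative log2 ratio was 0.79, and 98.4% of tested transcripts lay below it. Very abundant transcripts varied more than others, however. Among the 89 transcripts with a mean of at least 1000 nFPKM, 6 had a higher ratio than Mest, and 25.8% met the size rule in the higher direction. Those 6 include the globin genes Hbb-bh1 (1.69), Hba-x (1.55), Hbb-y (1.21) and Hbb-b1 (1.13). The annotated span of Mest overlaps that of Copg2, which stood at 97.4 nFPKM in Sox9 cKO AVCs and 88.3 nFPKM in WT AVCs. Copg2 was thus far below Mest in both genotypes.

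Igf2 (NM_001122736), the paternally expressed growth factor gene, stood at 2295 nFPKM in Sox9 cKO AVCs and 1867 nFPKM in WT AVCs. The relative log2 ratio was 0.40, with 17 of the 89 most abundant transcripts above it. H19 (NR_001592), its maternally expressed neighbour on mouse chromosome 7, makes a long non-coding RNA and competes with Igf2 for the same enhancers. It stood at 5567 nFPKM in Sox9 cKO AVCs and 5136 nFPKM in WT AVCs, a relative log2 ratio of 0.22 that did not meet the size rule. The pair therefore lay on the same side of the median. The ratio of Igf2 to H19 within a genotype, which no rescaling between genotypes can change, was 0.412 in Sox9 cKO AVCs and 0.364 in WT AVCs, 1.13 times as high.

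Plagl1 (NM_009538), a paternally expressed zinc finger transcription factor known in mouse to act on other genes of the imprinted network, stood at 411 nFPKM in Sox9 cKO AVCs and 347 nFPKM in WT AVCs. Its relative log2 ratio of 0.35 lay just past the size rule. Among 1514 transcripts with a mean between 100 and 1000 nFPKM, 111 stood above it, and 8.65% of that class met the rule in the higher direction. Igf2r (NM_010515), the maternally expressed gene for the receptor that clears IGF2, stood at 1324 nFPKM in Sox9 cKO AVCs and 1086 nFPKM in WT AVCs. This is a relative log2 ratio of 0.39, close to the 0.40 of Igf2, and the Igf2 to Igf2r ratio was 1.73 in Sox9 cKO AVCs and 1.72 in WT AVCs. Transcripts of the growth factor and of the receptor that removes it thus kept nearly the same proportion, although they are expressed from opposite parental copies. This ratio was not planned beforehand. Airn, the paternally expressed antisense RNA that silences Igf2r on its own copy in mouse, overlaps Igf2r and stood at 117 nFPKM in Sox9 cKO AVCs and 107 nFPKM in WT AVCs (relative log2 ratio 0.23). Whether reads were assigned by strand was not stated in the labels, so the values of Igf2r and Airn may share reads.

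Start sites of 3 of these genes are shown as the RefSeq sequence of the 250 bases before an annotated start, because they belong to genes that met the size rule and hold 1 of the motifs searched. A pair of motifs was searched on both strands. The letters TGCCGC are the core recognised, when its CpG is methylated, by ZFP57, a protein that keeps methylation at imprint control regions. The letters AACAATG are a core motif of SOX proteins. Capitals mark TGCCGC or its reverse complement in Mest and Plagl1, and the reverse complement of AACAATG in Igf2.
Mest (GRCm38.p6 chr6:30737800-30738049, plus strand): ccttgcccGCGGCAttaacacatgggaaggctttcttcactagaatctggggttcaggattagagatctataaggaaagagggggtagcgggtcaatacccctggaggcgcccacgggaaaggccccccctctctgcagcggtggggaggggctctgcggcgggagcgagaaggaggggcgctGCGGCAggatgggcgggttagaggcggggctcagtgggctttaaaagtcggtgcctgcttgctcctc
Plagl1 (GRCm38.p6 chr10:13090582-13090831, plus strand): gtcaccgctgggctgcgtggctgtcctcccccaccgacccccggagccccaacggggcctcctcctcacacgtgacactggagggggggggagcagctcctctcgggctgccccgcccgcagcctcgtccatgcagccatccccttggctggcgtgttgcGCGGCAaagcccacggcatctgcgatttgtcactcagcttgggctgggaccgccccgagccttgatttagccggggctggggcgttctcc
Igf2 (GRCm38.p6 chr7:142661272-142661521, minus strand): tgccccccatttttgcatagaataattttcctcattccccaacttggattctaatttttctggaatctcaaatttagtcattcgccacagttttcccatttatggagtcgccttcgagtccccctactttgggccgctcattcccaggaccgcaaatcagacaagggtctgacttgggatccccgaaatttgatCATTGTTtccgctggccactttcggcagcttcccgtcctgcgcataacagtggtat
The Mest window, 1 of 3 annotated starts of that gene, held 2 matches to TGCCGC and 14 CpG, and the Plagl1 window held 1 match and 19 CpG, against a median of 6 CpG over 32536 such windows. Of all windows, 8.75% held TGCCGC and 3.21% held AACAATG. The Igf2 window, 1 of 4 annotated starts of that gene, held AACAATG beginning 56 bases before the start. It was the only window of the 16 annotated for 9 of the genes that held it, while no such window was given for H19. Beyond Mest and Plagl1, TGCCGC was found before 1 start of Meg3, a gene that did not meet the rule. A Mest start 3 bases away shared its matches, and the other Mest start had none. No window of Igf2, Dlk1 or Igf2r, which met the rule, held TGCCGC, nor did any of Grb10, Peg3 or Ndn. The matches describe these letters only. Positions of the SOX9 peaks of the series are on the mm9 build, for which gene positions were not used here, so peaks were not set beside these starts.

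Dlk1 (NM_001190703), a paternally expressed transmembrane protein related to Notch ligands, stood at 18.8 nFPKM in Sox9 cKO AVCs and 15.0 nFPKM in WT AVCs. The relative log2 ratio was 0.41, and 95.4% of the 8173 transcripts with a mean between 10 and 100 nFPKM lay below it. Of that class 7.57% met the rule in the higher direction. Meg3 (NR_003633), the maternally expressed non-coding RNA of the same cluster on chromosome 12, stood at 144 nFPKM in Sox9 cKO AVCs and 161 nFPKM in WT AVCs (-0.05). The pair lay on opposite sides of the median. The ratio of Dlk1 to Meg3 was 0.130 in Sox9 cKO AVCs and 0.0935 in WT AVCs, 1.39 times as high, a larger shift than that of Igf2 to H19. Other genes of the cluster lay on both sides of the median of all transcripts. Rtl1, a paternally expressed gene derived from a retrotransposon, stood at 4.36 nFPKM in Sox9 cKO AVCs and 3.70 nFPKM in WT AVCs (0.30). Its annotated span overlaps that of the more abundant Meg3, so their values may share reads. The maternally expressed non-coding RNAs Rian (0.13) and Mirg (-0.35) lay on opposite sides. Mirg stood at 8.13 nFPKM in Sox9 cKO AVCs and 11.5 nFPKM in WT AVCs. Rtl1 and Mirg had means under 10 nFPKM and lay within the 5th to 95th percentile of such transcripts, -0.67 to 0.67. Rtl1 and Mirg were named after their values were seen.

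Among the 3 genes not yet described, differences were small. Grb10 (NM_001177629), an adaptor that dampens insulin and IGF receptor signalling, is expressed from the maternal copy in most mouse tissues and from the paternal copy in neurons. It stood at 1223 nFPKM in Sox9 cKO AVCs and 1248 nFPKM in WT AVCs (0.08). Peg3 (NM_008817), a paternally expressed zinc finger protein, stood at 233 nFPKM in Sox9 cKO AVCs and 249 nFPKM in WT AVCs (0.01). Ndn (NM_010882), the paternally expressed gene of the growth suppressor necdin, stood at 125 nFPKM in Sox9 cKO AVCs and 130 nFPKM in WT AVCs (0.04). In nFPKM as deposited, Meg3, Grb10, Peg3 and Ndn were all lower in Sox9 cKO AVCs, so the sign of Grb10, Peg3 and Ndn depends on the scaling. Rescaled without globins and with no centring, the log2 ratio was 0.056 for Grb10, 0.019 for Ndn and -0.011 for Peg3. In the authors' deposited table the log2 fold change was 0.079 for Grb10, 0.043 for Ndn and 0.012 for Peg3.

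**Figure D2:**
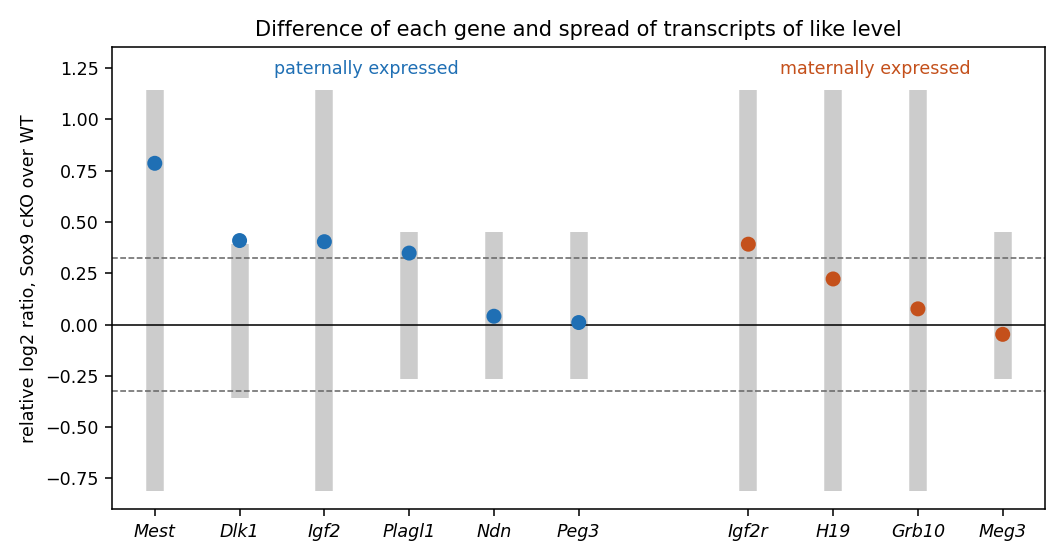
Relative log2 ratio of Sox9 cKO over WT for each gene (points), with grey bars for the 5th to 95th percentile of all transcripts in the same class of mean level and dashed lines at the size rule. Mest (0.79), Dlk1 (0.41), Igf2 (0.40), Plagl1 (0.35) and Igf2r (0.39) lie above the upper line, and Dlk1 alone lies outside its grey bar.

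Set against the spread of transcripts of like level, 9 of the 10 genes lay inside the middle 90%, and Dlk1 lay just outside. From the 5th to the 95th percentile, relative log2 ratios spanned -0.81 to 1.14 among transcripts of at least 1000 nFPKM, a class that holds Mest, Igf2, Igf2r, H19 and Grb10. They spanned -0.26 to 0.45 between 100 and 1000 nFPKM, the class of Plagl1, Peg3, Ndn and Meg3. Between 10 and 100 nFPKM, the class of Dlk1, they spanned -0.36 to 0.39. The class of at least 1000 nFPKM also holds the globin genes named beside Mest, at its upper end.

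**Figure D3:**
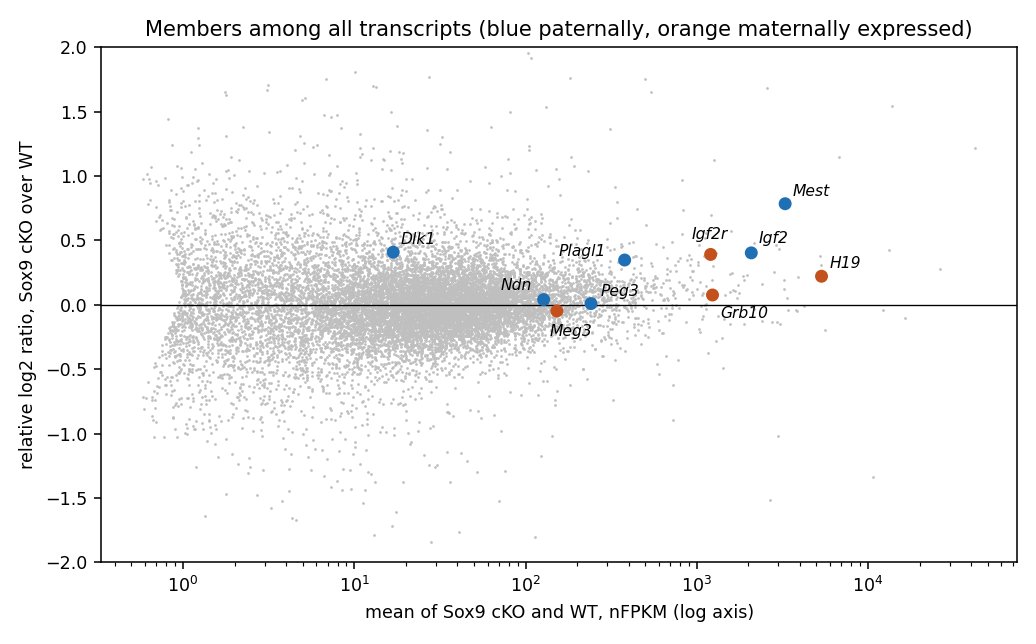
Relative log2 ratio of Sox9 cKO over WT (y axis) against the mean level of both genotypes in nFPKM (x axis, log) for all tested transcripts in grey and for the 10 genes in blue (paternally expressed) and orange (maternally expressed); 24 transcripts beyond 2 in size are not drawn. Mest, Igf2, Igf2r, H19 and Grb10 lie in the sparse range from 1000 nFPKM up.

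The paternally and maternally expressed genes were then contrasted. Of the 6 paternally expressed genes, 4 met the size rule in the higher direction (Mest, Dlk1, Igf2 and Plagl1), beside 10.8% of all transcripts, and their median relative log2 ratio was 0.38. Of the 4 maternally expressed genes, 1 met it (Igf2r), and their median was 0.15. Without the centring, 1 of the 6 (Mest) and none of the 4 met the rule higher, beside 942 of 13793 tested transcripts. The medians were then 0.27 for the paternally and 0.043 for the maternally expressed genes. The difference of medians was 0.23, and 0.20 with Mest left out, an alternative chosen after seeing the data. The ranges overlapped, from 0.01 to 0.79 for the paternally expressed and from -0.05 to 0.39 for the maternally expressed genes. Genes are not replicates, and no test of this difference was made.

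Imprinted genes beyond these 10 lay on both sides of the median of all transcripts, from -0.73 to 0.93. Of 20 other paternally expressed genes tested, 1 met the size rule higher and 1 lower, beside 10.8% and 9.62% of all transcripts. Their median was 0.09, and -0.017 without the centring. The higher one was Sfmbt2, at 3.38 nFPKM in Sox9 cKO AVCs and 2.74 nFPKM in WT AVCs (0.33). It is a Polycomb-related gene, named after its value was seen. The lower one was Nnat, neuronatin, at 72.4 nFPKM in Sox9 cKO AVCs and 98.8 nFPKM in WT AVCs (-0.34). Of 11 other maternally expressed genes, 1 met the rule higher and 2 lower, with a median of -0.03. The higher one was Ascl2, at 1.19 nFPKM in Sox9 cKO AVCs and 0.238 nFPKM in WT AVCs (0.93). The lower ones were Mirg and Phlda2, a growth restrainer of the placenta, with a relative log2 ratio of -0.73. Ascl2 and Phlda2 are near the filter of 1 nFPKM. Sfmbt2 and Mirg had means under 10 nFPKM and lay within the 5th to 95th percentile of such transcripts, -0.67 to 0.67. Without the centring, none of the 20 met the rule higher and 3 lower, and of the 11, 1 met it higher and 3 lower. Of all 13793 tested transcripts, 942 met it higher and 2379 lower without the centring.

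The abundant genes of these wider lists lay within the size rule, apart from Nnat. Cdkn1c, the maternally expressed inhibitor of cyclin-dependent kinases, was the most abundant at 584 nFPKM in Sox9 cKO AVCs and 510 nFPKM in WT AVCs (0.30). Slc38a4, a paternally expressed amino acid transporter, stood at 227 nFPKM in Sox9 cKO AVCs and 206 nFPKM in WT AVCs (0.24). Ube3a, a ubiquitin ligase gene imprinted in neurons, had a relative log2 ratio of 0.23 and Rian, named above, of 0.13. Peg10 (-0.03) and Asb4 (-0.17) lay below the median of all transcripts.

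Genes of the machinery that keeps imprints were looked at next. None of 10 tested genes for DNA methylation and imprint maintenance met the size rule, beside 10.8% of all transcripts in the higher and 9.62% in the lower direction. Their median was -0.08, and -0.19 without the centring. The maintenance methyltransferase gene Dnmt1 stood at 127 nFPKM in Sox9 cKO AVCs and 142 nFPKM in WT AVCs (-0.06). Trim28, which ZFP57 recruits, stood at 317 nFPKM in Sox9 cKO AVCs and 372 nFPKM in WT AVCs (-0.13). The methyltransferase Dnmt3a (-0.13) and the methylation reader Uhrf1 (-0.12) stood at like distances below the median. Ctcf, whose protein insulates Igf2 from the shared enhancers on the maternal copy, stood at 64.5 nFPKM in Sox9 cKO AVCs and 78.3 nFPKM in WT AVCs (-0.17). Of 6 tested regulators of Igf2 and H19, Ctcf included, 2 met the rule, both higher, beside 10.8% of all transcripts. These were Lin28b (0.42) and Hmga2 (0.36), named after their values were seen, and neither met it without the centring. Lin28b stood at 6.18 nFPKM in Sox9 cKO AVCs and 4.78 nFPKM in WT AVCs. It lay within the 5th to 95th percentile of transcripts with a mean under 10 nFPKM, -0.67 to 0.67. The IGF2 mRNA-binding proteins Igf2bp1, Igf2bp2 and Igf2bp3 stood at 0.30, 0.26 and 0.21.

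Around Igf2, the other genes of the IGF pathway differed in different directions. Igf1, the second IGF ligand and not imprinted, stood at 43.9 nFPKM in Sox9 cKO AVCs and 86.3 nFPKM in WT AVCs, a relative log2 ratio of -0.85, opposite in sign to Igf2. In both genotypes Igf2 was far above Igf1. The signalling receptors Igf1r (61.2 nFPKM in Sox9 cKO AVCs and 53.9 in WT AVCs, 0.29) and Insr (0.24) and the cation-dependent mannose 6-phosphate receptor M6pr (0.0026) did not meet the rule. Of 6 tested IGF binding proteins, 1 met it, in the higher direction, beside 10.8% of all transcripts. This was Igfbp3, at 62.5 nFPKM in Sox9 cKO AVCs and 44.4 nFPKM in WT AVCs (0.59). The more abundant Igfbp5 (-0.12), Igfbp4 (0.18) and Igfbp2 (0.15) did not.

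The largest differences of the pathway were among genes that control the release of IGFs from binding proteins. All 3 tested genes met the size rule higher, beside 10.8% of all transcripts. Of these 3, 2 also met the 2-fold rule higher, beside 0.834%. Pappa2, also listed, did not reach 1 nFPKM in either genotype and was not tested. Pappa, the protease that cleaves IGFBP4 and IGFBP5, stood at 6.71 nFPKM in Sox9 cKO AVCs and 4.69 nFPKM in WT AVCs (0.54). It lay within the 5th to 95th percentile of transcripts with a mean under 10 nFPKM, -0.67 to 0.67. The stanniocalcins, which inhibit that protease, stood higher still. Stc1 was at 22.3 nFPKM in Sox9 cKO AVCs and 9.93 nFPKM in WT AVCs (1.20), and Stc2 at 20.7 nFPKM in Sox9 cKO AVCs and 6.21 nFPKM in WT AVCs (1.69). Of 5 tested receptor adaptors, 1 met the rule, in the higher direction, beside 10.8% of all transcripts. This was Irs2 (0.49), named after its value was seen, while Irs1 (-0.03), Shc1 (-0.03), Grb2 (-0.06) and Grb14 (0.08) lay near the median.

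**Figure D4:**
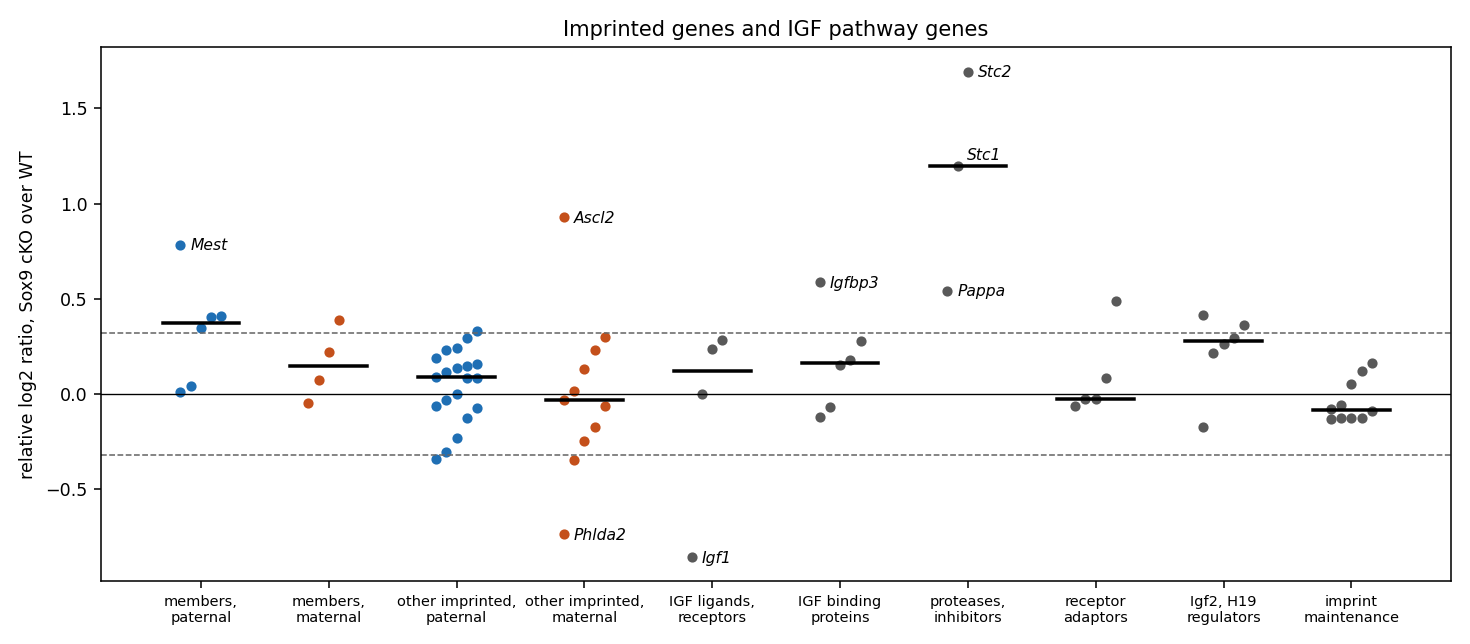
Relative log2 ratio of Sox9 cKO over WT for each tested gene of the imprinted and IGF pathway lists (points), with the list median (bar) and dashed lines at the size rule; genes at 0.5 or more in size are named. Stc2 (1.69) and Stc1 (1.20) stand highest and Igf1 (-0.85) lowest, and the genes of imprint maintenance lie within the dashed lines.

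The spans of Mest, Igf2 and H19, the 3 most abundant of the 10 genes, also hold annotated microRNAs. Their mature forms and the transcripts they are cut from were not measured here. They are shown to complete the products annotated at these loci. Mature RefSeq sequences are given with the seed (bases 2 to 8) in capitals.
mmu-miR-335-5p: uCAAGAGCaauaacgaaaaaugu
mmu-miR-335-3p: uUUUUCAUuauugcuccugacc
mmu-miR-483-5p: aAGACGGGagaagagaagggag
mmu-miR-483-3p: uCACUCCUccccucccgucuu
mmu-miR-675-5p: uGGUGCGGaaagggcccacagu
mmu-miR-675-3p: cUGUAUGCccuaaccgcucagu
The miR-335 pair lies within Mest on chromosome 6, the miR-483 pair within Igf2 and the miR-675 pair within H19, both on chromosome 7. No 2 of these 6 share a seed.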

How the data were processed

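Each transcript of the deposited table has an FPKM value per genotype that the authors normalized again (nFPKM), per the file headers. It merges the duplicates of a genotype. TopHat2, Cufflinks, edgeR and the build mm9 are named in the submitters' processing notes, without versions or roles. How the values were normalized again, and the read depth, were not stated. The authors' deposited log2 fold change served as an alternative. Groups came from the genotype labels.

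From these, the log2 ratio of Sox9 cKO over WT was computed with a pseudocount of 1 nFPKM, which understates low genes' ratios, over the 13793 transcripts that reached 1 nFPKM in Sox9 cKO or in WT. It was centred on their median. No test was possible with 1 value per genotype. Named genes were the 10 genes and, of each other list, those with a relative log2 ratio of at least 0.5 in size and the 4 most abundant. The genes and lists were chosen with earlier results of these data known. Peak lists were not used, since gene positions on mm9 were not used here. Promoters and microRNAs came from RefSeq tables of GRCm38.p6. The steps, in Python 3.11.15 with numpy 2.4.6 and pandas 2.3.3, were tested on simulated data.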

Additional observations from a re-analysis of the deposited data

How the results depend on the processing

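Each of the 10 genes was recomputed under 9 alternatives (pseudocount 0.1 or 5 nFPKM, no filter or at least 10 nFPKM, no centring, centring on transcripts of at least 30 nFPKM in both genotypes, rescaling without globins, the authors' deposited log2 fold change, and summed rows). Of the 90 values, 80 moved by less than 0.1, a tolerance set in place of the unknown replicate spread, and 10 moved more, all by leaving out the centring. Without it, 1 of the 10 genes met the size rule (0.322) higher in place of 5, and the medians were 0.27 for paternally and 0.043 for maternally expressed genes. That shift is the -0.11 median itself. Mest met the rule under all 9 alternatives, Igf2, Dlk1 and Igf2r under 8, and Plagl1 under 7, missing it also with a pseudocount of 5. These counts are not a measure of robustness, since several alternatives could hardly move the 10 genes. Each has 1 transcript, so summed rows and the filters changed only the median taken out. The authors' log2 fold change lay 0.0945 to 0.109 above each gene's uncentred ratio without pseudocount, a nearly constant shift that centring removed. The difference of medians ran from 0.14, without H19 and Meg3, to 0.23. Over all transcripts, 822 met the rule higher and 630 lower with a pseudocount of 5, 816 and 677 with at least 10 nFPKM, and 942 and 2379 without centring. The cause was not tested. The ratios within a genotype do not depend on these settings. No paired analysis was possible because the table holds 1 merged value per genotype, and no library could be left out for the same reason.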
